A study of Mus musculus with 8 samples.

Results

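The genes described here encode 10 secreted proteins of the extracellular matrix, namely Fn1, Postn, Sparc, Thbs1, Thbs2, Lox, Loxl1, Loxl2, Dcn and Cilp. They were taken by gene name, and all 10 were found among the 30387 genes of the deposited table and passed the filter on low values. RNA from isolated epididymal white adipocytes was sequenced in 4 groups of 2 libraries each. The mice were Ad-Yap/Taz-KO (KO), which carry Adipoq-Cre with both copies of Yap and Taz floxed (Yap fl/fl and Taz fl/fl), or wild-type littermates (WT), and received either standard diet (SD; called normal chow in the series description) or high-fat diet (HFD) for 4 weeks, from the age of 5 weeks as the series description gives it; the methods of the study give a later start. YAP and TAZ are transcriptional co-activators that act with TEAD factors. Adipoq-Cre is a constitutive Cre driven by the adiponectin gene, which is switched on in adipocytes, so that other cells carried along in an adipocyte preparation keep both genes. The mice were male, and each library is labelled as a mouse. The p-values below rest on the spread between animals within groups. This spread was taken as equal in the 4 groups, although they differed in it, and was drawn toward that of other genes of similar level.

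Matricellular proteins are secreted proteins that sit in the matrix and change how cells attach to it and respond to it, rather than bearing load themselves. SPARC binds collagen and calcium, thrombospondins bind cell-surface receptors and growth factors, and periostin joins collagen, fibronectin and the protease that activates lysyl oxidase. Lysyl oxidases oxidise lysine side chains of collagen and elastin so that the fibres become crosslinked, while decorin coats collagen fibrils and sets their spacing. In white adipose tissue most collagen and decorin RNA is known from fibroblastic progenitor cells, whereas mature adipocytes are known as a strong source of SPARC.

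The values are normalized counts, which the authors made from gene counts with a size factor for each library and deposited as whole numbers. Between about 13990000 and 22320000 reads fell on genes in a library, and 1 read was worth 0.795 to 1.135 normalized counts. Of the targeted genes, Wwtr1 was called lower in KO on both diets and Yap1 on SD alone, and both stayed detected. Wwtr1, which encodes TAZ, was lower in KO by -1.24 on the log2 scale on SD and by -1.56 on HFD (limma adjusted p = 0.000969 and 3.11e-05), and Yap1 by -0.71 on SD (adjusted p = 0.0238) and changed by -0.42 on HFD (adjusted p = 0.0591, not called). The 2 WT HFD libraries were much more alike than those of any other group: the larger value of a gene over the smaller had a median over the 10 genes of 1.05 there, of 1.16 in WT SD, of 1.29 in KO HFD and of 1.43 in KO SD.

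The libraries differed in the RNA of other cells, and these values belong beside every result below. All 9 adipocyte markers, among them Adipoq and Plin1, were present in every library, and their summed level was 186922 and 201115 normalized counts in WT SD, 150712 and 218077 in KO SD, 349068 and 341780 in WT HFD and 165280 and 82420 in KO HFD. The 12 fibroblast and progenitor markers, which include the collagens Col1a1, Col1a2 and Col3a1, summed to 38257 and 31672 in WT SD, 59201 and 37493 in KO SD, 27921 and 28343 in WT HFD and 84080 and 89126 in KO HFD. Summed over 8 macrophage markers, the level was 4559 and 4362 in WT SD, 37914 and 23608 in KO SD, 1970 and 2036 in WT HFD and 53533 and 41104 in KO HFD. In KO against WT on HFD, 8 of 9 adipocyte markers were called lower, 7 of 12 fibroblast and progenitor markers higher and 1 lower, and 8 of 8 macrophage markers higher. No marker of these 3 lists was at 0 in any library. RNA of whole preparations cannot tell fewer cells of a type from less RNA per cell.

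Per kilobase of exon, the 10 genes spanned a wide range of levels. Averaged over the 8 libraries, Sparc reached 13068 normalized counts per kb, which ranked 23 among 18750 genes with a length, and Thbs1 reached 4167, at rank 83. Dcn followed with 1217, then Fn1 with 475, Postn with 364, Loxl1 with 339, Lox with 304, Thbs2 with 136, Loxl2 with 120 and Cilp with 54.1 normalized counts per kb, the last at rank 8258. Sparc was above Thbs1 in each library, and the 2 ranges over libraries did not overlap. For every other pair of neighbours in this order the ranges overlapped.

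The order of levels also depended on the group. In WT HFD libraries Sparc alone made up 72.1% and 72.0% of the summed per-kb level of the 10 genes and Dcn 1.81% and 1.94%. In KO HFD libraries Sparc made up 60.3% and 52.9% and Dcn 10.2% and 14.2%. The sum itself was 31236 and 30858 normalized counts per kb in WT HFD, 16842 and 19212 in WT SD, 16336 and 15351 in KO SD, and 16355 and 15767 in KO HFD, so that WT HFD stood apart from the other 3 groups.

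**Figure D1:**
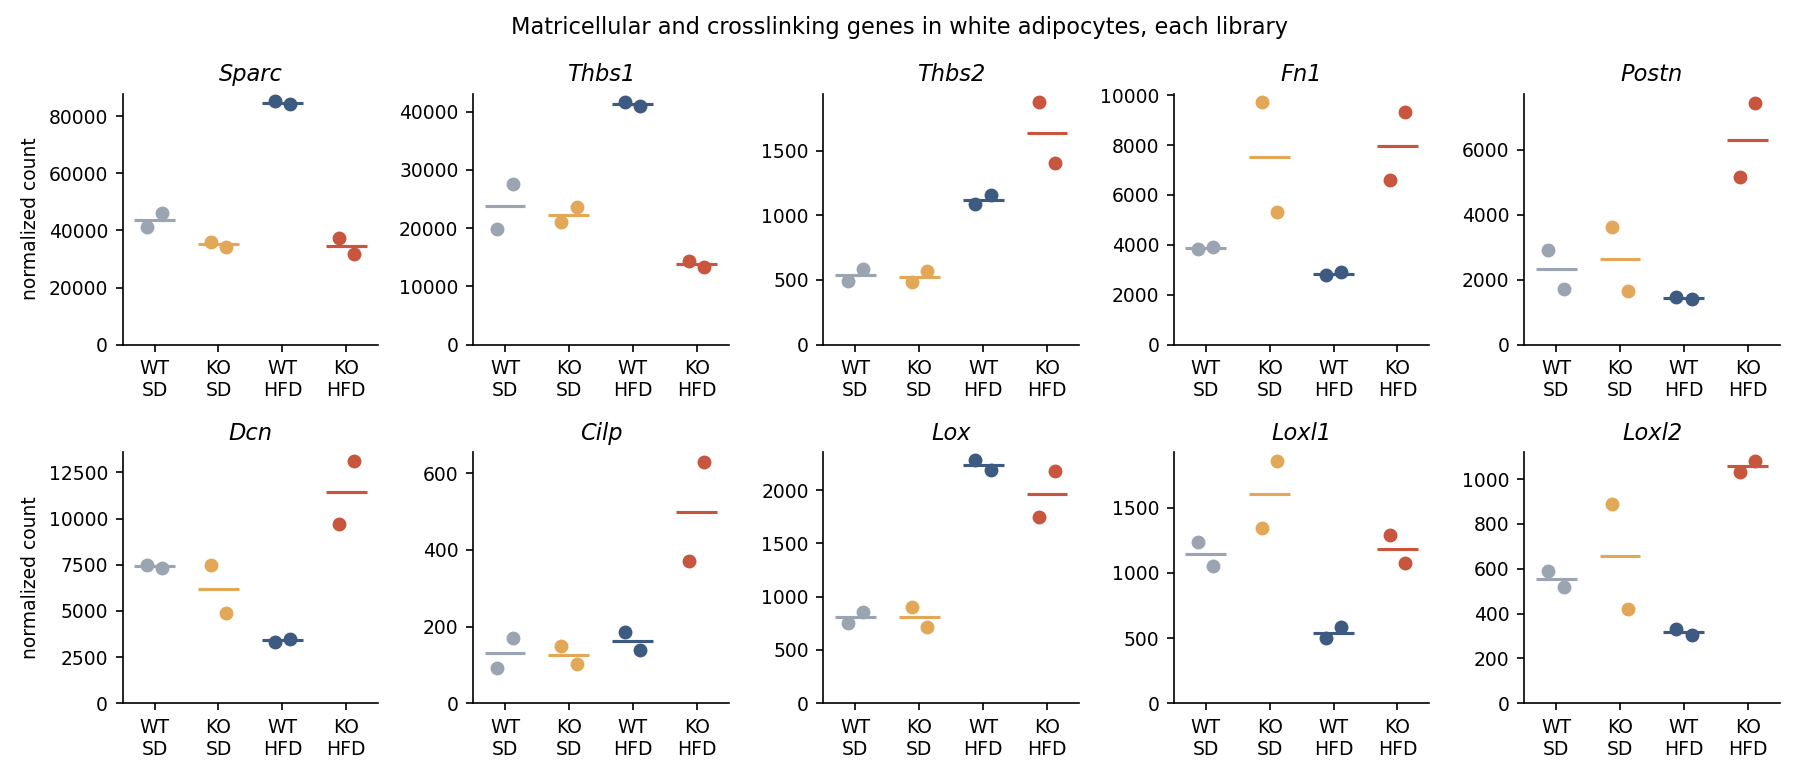
Normalized counts (y axis, linear from 0, a scale of its own for each gene) of the 10 genes in the 4 groups (x axis); each point is 1 library and each line is the mean of the 2 libraries of a group. Sparc and Thbs1 are highest in WT HFD, whereas Postn, Dcn, Cilp and Loxl2 are highest in KO HFD, and Lox is high in both HFD groups.

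To ask how loss of YAP and TAZ in adipocytes went together with these genes during high-fat feeding, KO and WT libraries on HFD were compared. Of the 10 genes, 6 were higher in KO (Postn, Dcn, Loxl2, Cilp, Fn1 and Loxl1), 2 were lower (Thbs1 and Sparc), and Thbs2 and Lox were not called. A gene was called where limma, fitted to log2(value + 1) of all 18800 genes that passed the filter, gave a p of 0.05 or less after Benjamini-Hochberg adjustment and a log2 fold change of 0.59 or more in size. The same rule called 32.2% of all genes in this comparison, 17.1% of them as higher and 15.1% as lower. The median log2 fold change of the 10 genes was 1.30, beside 0.09 for all genes tested. The KO and WT libraries did not overlap for any of the 10 genes, which was also so for 69.6% of all genes. When libraries were scaled to the same total rather than with the authors' size factors, the median change of all genes moved from 0.09 to 0.47, calls over all genes moved from 3213 higher and 2840 lower to 4617 higher and 1367 lower, and the 10 genes then gave 7 higher, with Thbs2 added at 0.92, and 2 lower.

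Sparc (ENSMUSG00000018593; GRCm38 chromosome 11, 55394500 to 55420080, minus strand) encodes the collagen-binding matricellular protein osteonectin. Its normalized count was 41241 and 46070 in WT SD, 35922 and 34374 in KO SD, 85278 and 84189 in WT HFD, and 37337 and 31590 in KO HFD. Both WT HFD libraries stood far above the other 6, and KO HFD lay close to KO SD. In KO against WT on HFD Sparc was 0.405-fold (log2 fold change -1.30 ± 0.19 SE, adjusted p = 0.000235). The call did not hold under quantile normalization, where the change was -0.46 (adjusted p = 0.0639).

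Thbs1 (ENSMUSG00000040152; chromosome 2, 118111876 to 118127133, plus strand) encodes thrombospondin 1, a ligand of CD36 and CD47 and an activator of latent TGF-beta. It stood at 19863 and 27585 in WT SD, 21003 and 23657 in KO SD, 41687 and 40914 in WT HFD, and 14404 and 13346 in KO HFD. The KO HFD libraries were the lowest and the WT HFD libraries the highest of all. On HFD its level in KO was 0.336-fold that in WT (log2 fold change -1.57 ± 0.19 SE, adjusted p = 5.03e-05). The change was smaller under quantile normalization, at -0.90, and was still called. Gm29233, a gene on the opposite strand, shares 3.43% of the exon bases of Thbs1, and the strand setting of the read counting is not given in the sources used here.

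Thbs2 (ENSMUSG00000023885; chromosome 17, 14665500 to 14694262, minus strand) encodes thrombospondin 2, a relative of Thbs1 known for limiting blood vessel growth and for its place in collagen fibril assembly. Its normalized count was 488 and 588 in WT SD, 484 and 568 in KO SD, 1086 and 1153 in WT HFD, and 1871 and 1403 in KO HFD. Every HFD library was above every SD library. In KO against WT on HFD the change was 0.53 ± 0.19 SE with an adjusted p of 0.0442, which passed the limit on p and not that on fold. It passed both when libraries were scaled to the same total (0.92), under quantile normalization (0.71) and without the second KO HFD library (0.74).

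The 2 thrombospondins therefore moved apart within the KO HFD libraries. Per kb, the ratio of Thbs1 to Thbs2 was 46.9 and 54.1 in WT SD, 50.04 and 48.03 in KO SD, 44.3 and 40.9 in WT HFD, and 8.88 and 10.97 in KO HFD. A ratio within a library does not depend on how libraries were scaled. Both ratios in KO HFD lay far below the other 6.

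Against the mean log2 level of the 9 adipocyte markers, Sparc was no lower in KO HFD than in WT HFD. The markers differed among themselves in KO against WT on HFD. Lep changed by -4.45, Cidec by -2.07, Pparg by -1.29 and Fabp4 by -0.32, beside -1.30 for Sparc and -1.57 for Thbs1. The distances below therefore depend on which markers are taken. The distance of Sparc above the mean log2 level of the 9 markers was 1.84 in both WT HFD libraries and 1.91 and 2.73 in KO HFD, and in SD libraries it ran from 1.27 to 1.86. For Thbs1 this distance was 0.80 in both WT HFD libraries and 0.54 and 1.49 in KO HFD, with the WT values inside the KO range. Between the 2 KO HFD libraries the marker sum fell from 165280 to 82420, while Thbs1 was at 14404 and 13346 and Sparc at 37337 and 31590. The part of the adipocyte markers in these changes was not tested beyond these distances.

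Fn1 (ENSMUSG00000026193; chromosome 1, 71585520 to 71653200, minus strand) encodes fibronectin, the adhesive glycoprotein on which collagen and many matricellular proteins assemble. It was at 3841 and 3908 in WT SD, 9719 and 5311 in KO SD, 2775 and 2901 in WT HFD, and 6600 and 9338 in KO HFD. All 4 KO libraries lay above all 4 WT libraries. The change in KO on HFD was 2.77-fold (log2 fold change 1.47 ± 0.24 SE, adjusted p = 0.000601).

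Postn (ENSMUSG00000027750; chromosome 3, 54361109 to 54391037, plus strand) encodes periostin, a matricellular partner of fibronectin and collagen. Its normalized count was 2907 and 1722 in WT SD, 3626 and 1665 in KO SD, 1454 and 1394 in WT HFD, and 5166 and 7421 in KO HFD. On SD the libraries of the 2 genotypes overlapped, while on HFD they stood well apart. Of the 10 genes, it had the largest change in KO on HFD, 4.35-fold (log2 fold change 2.12 ± 0.32 SE, adjusted p = 0.000312).

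Dcn (ENSMUSG00000019929; chromosome 10, 97479500 to 97518162, plus strand) encodes decorin, a small leucine-rich proteoglycan of collagen fibrils. It stood at 7506 and 7339 in WT SD, 7472 and 4894 in KO SD, 3307 and 3488 in WT HFD, and 9717 and 13120 in KO HFD. WT HFD libraries were the lowest and KO HFD libraries the highest. In KO on HFD it was 3.32-fold higher (log2 fold change 1.73 ± 0.20 SE, adjusted p = 4.24e-05).

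Cilp (ENSMUSG00000042254; chromosome 9, 65265180 to 65280605, plus strand) encodes cartilage intermediate layer protein, a matrix protein that binds TGF-beta. It was the least abundant gene of the 10, at 93 and 171 in WT SD, 150 and 101 in KO SD, 185 and 140 in WT HFD, and 370 and 629 in KO HFD. The first 3 groups overlapped, and both KO HFD libraries were above all others. The change on HFD was 2.99-fold (log2 fold change 1.58 ± 0.36 SE, adjusted p = 0.00478), and the call was lost without the second WT HFD library (1.38) or the second KO HFD library (1.20). A fit without 1 library leaves a group with a single library, which is assumed to vary like the other groups, here and wherever a library is left out.

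For the genes that were higher in KO HFD, the fibroblast and progenitor markers moved too. The distance of Fn1 above the mean log2 level of these 12 markers was 2.18 and 2.36 in WT HFD and 2.33 and 2.68 in KO HFD, so that the libraries overlapped. For Dcn it was 2.43 and 2.62 in WT HFD and 2.89 and 3.17 in KO HFD, for Postn 1.25 and 1.30 against 1.98 and 2.35, for Loxl2 -0.89 in both WT HFD libraries against -0.34 and -0.43, for Cilp -1.72 and -2.004 against -1.82 and -1.21, and for Loxl1 -0.30 and 0.05 against -0.01 and -0.43. Measured against the mean of the same markers, Postn, Dcn and Loxl2 were still above in KO HFD by a smaller step, and Fn1, Cilp and Loxl1 overlapped. The step depends on the marker taken. In KO against WT on HFD, Pdgfra changed by 2.96, Col1a2 by 2.27 and Col1a1 by 2.17, each more than Postn (2.12), Dcn (1.73) and Loxl2 (1.73). Dpt changed by -0.01 and Cd55 by -0.66, and the remaining markers lay between. Thbs2 and Lox, which were not called, were lower against this mean in KO HFD. Thbs2 was at 0.82 and 1.03 in WT HFD and 0.52 and -0.05 in KO HFD, and Lox at 1.89 and 1.96 against 0.42 and 0.58. Against the mean of the 8 macrophage markers, all 10 genes were lower in KO HFD than in WT HFD, with Postn at 3.74 and 3.37 against 0.51 and 1.24. The part of other cells in these changes was not tested beyond these distances.

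Start-site sequences were at hand for 4 of the 10 genes, in RefSeq on GRCm38.p6. These 4, Postn, Cilp, Sparc and Thbs2, are shown because they are all the members with a window, not for their expression: Postn, Cilp and Thbs2 were at their highest in KO HFD and Sparc in WT HFD. Each line gives the 100 bases before a start site on the strand of the gene, and capitals mark TATATAA, the letters of a common kind of TATA box, which were searched for after the windows had been read.
Postn, chr3:54361007-54361106, plus strand: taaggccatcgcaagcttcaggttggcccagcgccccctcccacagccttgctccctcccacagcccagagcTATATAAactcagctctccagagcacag
Cilp, chr9:65265080-65265179, plus strand: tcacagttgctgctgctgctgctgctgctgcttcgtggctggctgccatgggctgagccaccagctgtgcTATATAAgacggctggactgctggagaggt
Sparc, chr11:55420081-55420180, minus strand: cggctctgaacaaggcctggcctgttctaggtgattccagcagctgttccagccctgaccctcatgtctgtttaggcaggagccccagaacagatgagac
Thbs2, chr17:14694263-14694362, minus strand: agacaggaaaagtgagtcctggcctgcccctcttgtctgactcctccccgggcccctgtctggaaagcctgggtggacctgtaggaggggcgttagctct

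In 250 bases before the start, TATATAA began 28 bases before the start of Postn and 30 bases before that of Cilp, and it was absent from the windows of Sparc and Thbs2 and from a second window of Postn. On either strand it occurred in 3.04% of 32851 windows of this length. GGAATG, the core letters bound by TEAD factors, occurred on either strand in 12.6% of all windows, and TGANTCA, the AP-1 sequence, in 6.75%; neither occurred in the 5 windows of these genes. A match or its absence in so short a window is a description of the letters and says nothing of binding in these cells.

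The 3 lysyl oxidases did not move together. Lox (ENSMUSG00000024529; chromosome 18, 52516069 to 52529867, minus strand) encodes the founding enzyme of the family. It was at 757 and 853 in WT SD, 906 and 719 in KO SD, 2280 and 2193 in WT HFD, and 1749 and 2178 in KO HFD. Lox was higher in every HFD library than in every SD library, in both genotypes. In KO against WT on HFD its change was -0.20 (95% interval -0.57 to 0.18, adjusted p = 0.411), which turned to 0.19 with every library brought to 1 total and to 0.07 under quantile normalization.

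Loxl1 (ENSMUSG00000032334; chromosome 9, 58287723 to 58313212, minus strand) encodes the family member known for elastic fibre upkeep. Its normalized count was 1241 and 1054 in WT SD, 1345 and 1860 in KO SD, 499 and 583 in WT HFD, and 1294 and 1077 in KO HFD. WT HFD stood below the other 3 groups. On HFD the KO level was 2.19-fold that of WT (log2 fold change 1.13 ± 0.19 SE, adjusted p = 0.000808).

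Loxl2 (ENSMUSG00000034205; chromosome 14, 69609068 to 69695834, plus strand) encodes a family member that acts on the collagen IV of basement membranes. It stood at 589 and 520 in WT SD, 890 and 421 in KO SD, 331 and 305 in WT HFD, and 1031 and 1082 in KO HFD. The KO SD libraries lay on either side of both WT SD libraries. The change in KO on HFD was 3.32-fold (log2 fold change 1.73 ± 0.28 SE, adjusted p = 0.000465). Gm27177, which is on the opposite strand, shares 5.57% of its exon bases.

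As a result the makeup of the lysyl oxidase family differed between groups while its sum, at the authors' size factors, moved less. Unlike the shares, the sum depends on how libraries were scaled. Total normalized counts were 20994246 and 20815181 in WT HFD and 17194214 and 14890264 in KO HFD. Per kb, Lox made up 22.5% and 27.6% of the 5 family members (Lox and Loxl1 to Loxl4) in WT SD, 23.1% and 18.2% in KO SD, 65.8% and 62.6% in WT HFD, and 35.6% and 41.7% in KO HFD. Loxl1 made up 53.4% and 49.5% in WT SD and 49.8% and 68.2% in KO SD, against 20.9% and 24.1% in WT HFD and 38.1% and 29.9% in KO HFD. The summed level of the family was 704 and 646 normalized counts per kb in WT SD, 819 and 827 in KO SD, 725 and 733 in WT HFD, and 1029 and 1094 in KO HFD. Lox was thus the leading family member of WT HFD libraries, and Loxl1 that of SD libraries.

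**Figure D2:**
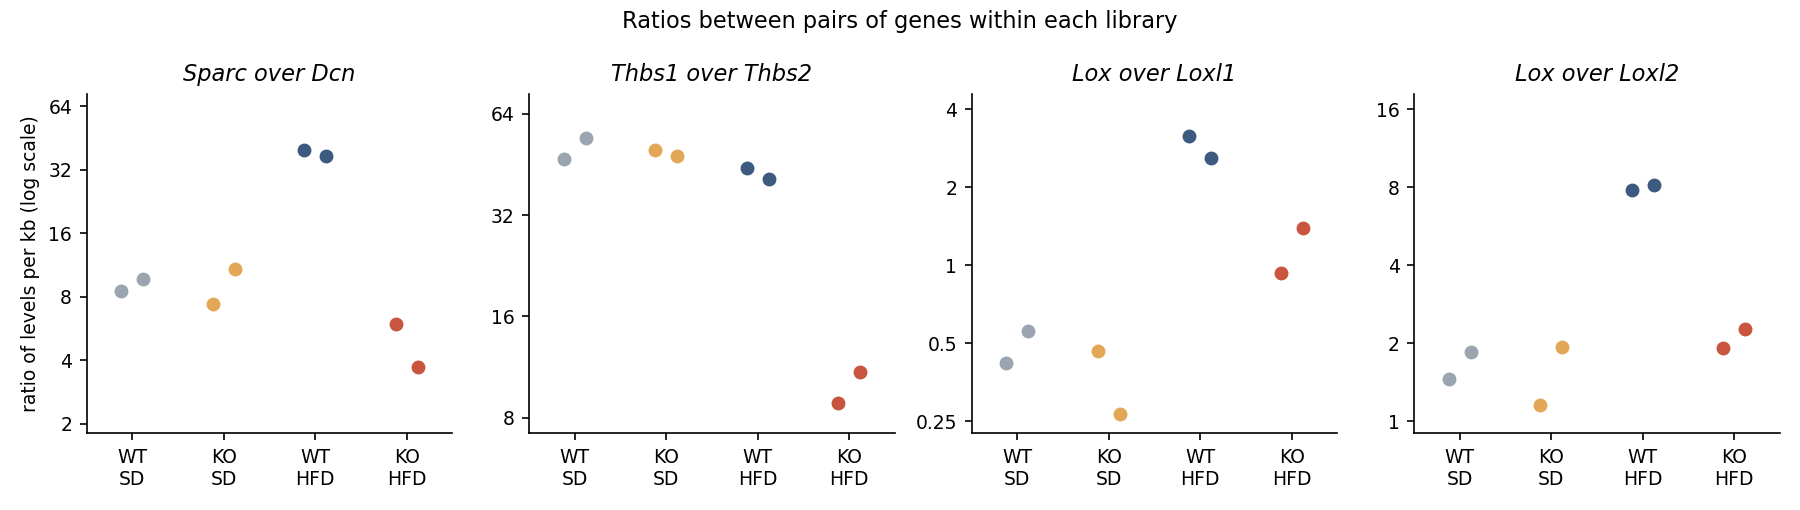
Ratio of per-kb levels of 2 genes within each library (y axis, log scale, one for each pair) in the 4 groups (x axis); each point is 1 library. Sparc over Dcn is 39.7 and 37.2 in WT HFD and 5.92 and 3.71 in KO HFD, and Lox over Loxl2 is 7.79 and 8.13 in WT HFD and between 1.15 and 2.28 elsewhere.

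Ratios within libraries set WT HFD apart as well. Sparc over Dcn, per kb, was 8.47 and 9.68 in WT SD, 7.41 and 10.8 in KO SD, 39.7 and 37.2 in WT HFD, and 5.92 and 3.71 in KO HFD. Lox over Loxl1 was 0.42 and 0.56 in WT SD, 0.46 and 0.27 in KO SD, 3.15 and 2.60 in WT HFD, and 0.93 and 1.40 in KO HFD. These pairs were chosen after their values were seen and are given as a description.

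On SD, by contrast, none of the 10 genes was called between KO and WT, where limma called 4.71% of all genes, 3.21% as higher and 1.5% as lower. At an unadjusted p under 0.05 there were 2 of the 10, Fn1 and Loxl1. Fn1 came nearest, with a change of 0.89 ± 0.24 SE and an adjusted p of 0.0573, and Loxl1 had 0.47 ± 0.19 SE with an adjusted p of 0.237. Fn1, Loxl1 and Sparc did not overlap between the genotypes, as did 45% of all genes, whereas the other 7 overlapped. The 95% intervals were widest for Cilp, from -0.81 to 0.74, and for Postn, from -0.56 to 0.83, so that sizeable changes of these genes on SD could not have been seen. Lox had a change of 0.01 with an interval from -0.37 to 0.38.

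Fn1 passed both limits on SD without the second KO SD library (1.33), in which it was 5311 against 9719 in the first. It also passed without either KO HFD library, and with a pseudocount of 8 (0.89). In the KO SD group the first library had the higher values of Fn1, Postn, Loxl2, Dcn, Cilp, Lox and Sparc, and it also had the lower adipocyte marker sum and the higher fibroblast and macrophage marker sums.

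High-fat feeding in WT, which asks how these genes respond to the diet where YAP and TAZ are present, went with higher Lox, Thbs2, Sparc and Thbs1 and with lower Dcn and Loxl1. Lox was 2.78-fold higher (log2 fold change 1.48 ± 0.17 SE, adjusted p = 0.000324), Thbs2 2.09-fold (1.06 ± 0.19, adjusted p = 0.0035), Sparc 1.94-fold (0.96 ± 0.19, adjusted p = 0.00566) and Thbs1 1.76-fold (0.82 ± 0.19, adjusted p = 0.0116). Dcn fell to 0.458-fold (-1.13 ± 0.20, adjusted p = 0.0037) and Loxl1 to 0.472-fold (-1.08 ± 0.19, adjusted p = 0.00362). Limma called 18% of all genes here, 8.74% as higher and 9.22% as lower, and for 9 of the 10 genes the HFD and SD libraries did not overlap, as for 65% of all genes.

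The remaining genes had values of -0.80 for Loxl2 (adjusted p = 0.0586), -0.65 for Postn (adjusted p = 0.166), -0.45 for Fn1 (adjusted p = 0.205) and 0.35 for Cilp (adjusted p = 0.521). Of 9 adipocyte markers 2 were higher and none was lower in this comparison, of 12 fibroblast and progenitor markers 2 were higher and 4 lower, 8 of 8 macrophage markers and 5 of 7 endothelial markers were lower, and their part in these changes was not tested. Only Lox was called in all 4 fits that left out 1 WT library. Lox was the sole gene of the 10 called without the first WT SD library, Lox and Thbs2 were called without the first WT HFD library, and Lox, Dcn and Loxl1 without the second. With both WT HFD libraries counted as 1 sample, Lox alone stayed called. Scaled to the same total, the split of the 10 genes moved from 4 higher and 2 lower to 2 higher, Lox and Thbs2, and 5 lower, and that of all genes from 1643 higher and 1734 lower to 470 higher and 3567 lower. Sparc and Thbs1 kept their direction there at 0.55 and 0.41. Under quantile normalization the split was 2 higher and 2 lower, with Sparc at 0.27 and Thbs1 at 0.45 and neither called.

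In KO mice the diet went with higher Cilp, Thbs2 and Lox, and no gene of the 10 was called lower. Cilp was 3.90-fold higher (log2 fold change 1.96 ± 0.36 SE, adjusted p = 0.0251), Thbs2 3.09-fold (1.63 ± 0.19, adjusted p = 0.00293) and Lox 2.42-fold (1.27 ± 0.17, adjusted p = 0.00678). Limma called only 1.07% of all genes in this comparison, 0.383% as higher and 0.691% as lower, and the libraries of 8 of the 10 genes did not overlap, as for 42% of all genes. Postn had a change of 1.33 (adjusted p = 0.069), Dcn of 0.90 (adjusted p = 0.0557), Loxl2 of 0.79 (adjusted p = 0.19), Loxl1 of -0.42 (adjusted p = 0.321) and Thbs1 of -0.68 (adjusted p = 0.104), while Fn1 and Sparc overlapped at 0.13 and -0.03. Without the second KO SD library only Thbs2 stayed called, and without the first there were 6 genes. Cilp was also lost without the second KO HFD library (1.58), and 5 genes were called without the first. No gene passed when the fit held only these 2 groups. Of 12 fibroblast and progenitor markers 3 were called higher and none lower in this comparison, and of 8 macrophage markers 1 was called higher. None of the 9 adipocyte and 7 endothelial markers was called. The part of these markers in the changes was not tested.

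Lox and Thbs2 were thus called higher on HFD in each genotype, and the difference between the 2 diet effects was not called for either. That difference, the interaction of genotype and diet, was -0.20 for Lox (95% interval -0.74 to 0.33, adjusted p = 0.599) and 0.56 for Thbs2 (95% interval -0.01 to 1.143, adjusted p = 0.158). With libraries brought to 1 total, that of Thbs2 passed both limits (0.99).

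**Figure D3:**
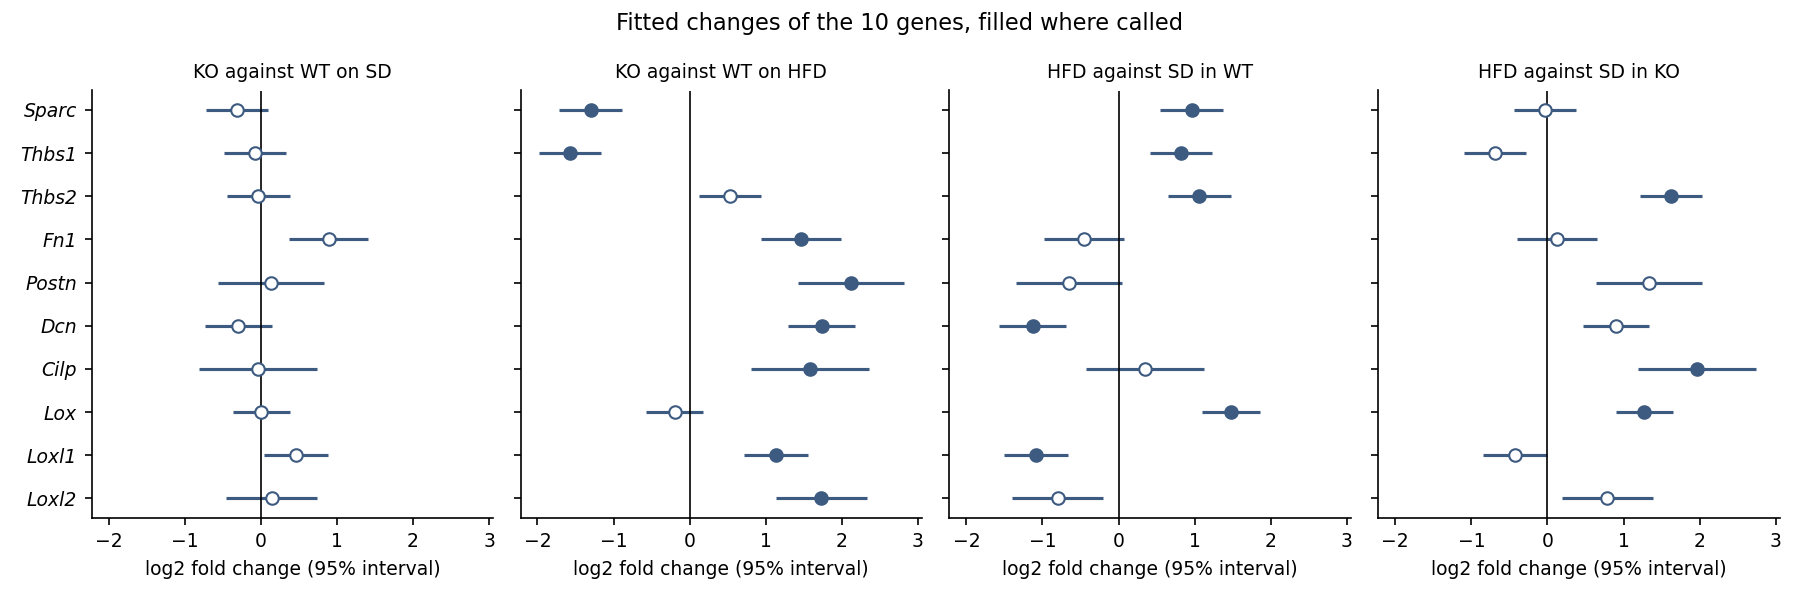
Fitted log2 fold changes (x axis) of the 10 genes (y axis) in the 4 comparisons, 1 per panel; bars are 95% intervals and filled points are genes called by limma. No point is filled for KO against WT on SD, and 8 are filled for KO against WT on HFD, where Sparc and Thbs1 lie at -1.30 and -1.57 and Postn at 2.12.

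The effect of genotype differed between the diets for 6 of the 10 genes. The interaction was positive for Dcn (2.03 ± 0.29 SE, adjusted p = 0.00275), Postn (1.98 ± 0.45, adjusted p = 0.0138), Cilp (1.61 ± 0.51, adjusted p = 0.0458) and Loxl2 (1.58 ± 0.39, adjusted p = 0.0181), and negative for Thbs1 (-1.50 ± 0.27, adjusted p = 0.00565) and Sparc (-0.99 ± 0.27, adjusted p = 0.0257). Limma called 17.4% of all genes for it, 8.69% in the positive and 8.73% in the negative direction. With libraries brought to 1 total, the split of the 10 genes moved from 4 positive and 2 negative to 6 positive, with Thbs2 (0.99) and Loxl1 (1.09) added, and 1 negative, with Sparc lost (-0.56), and that of all genes from 1633 and 1641 to 2610 and 619 with a median of 0.52. Quantile normalization gave 3 positive and 1 negative, without Cilp and Sparc. Fn1 had an interaction of 0.58 (95% interval -0.16 to 1.32, adjusted p = 0.256), which ran from 0.14 to 1.01 with 1 library left out and was called without the first KO SD library, and Loxl1 had one of 0.66 (95% interval 0.07 to 1.26, adjusted p = 0.112). Dcn and Thbs1 were called under each of 12 other settings and in each of 8 fits that left out 1 library, where the lone library of a group has no spread of its own. Postn kept its call under 9 of those 12 settings and in 4 of those 8 fits, Loxl2 under 9 and in 3, Cilp under 6 and in 2, and Sparc under 5 and in 3. Without the first WT SD library or either WT HFD library, only Dcn and Thbs1 were called. Postn was called beside them without the second WT SD library and Sparc without the second KO HFD library, and Sparc and Cilp were lost without the second KO SD library. Of the adipocyte markers 8 of 9 had a called negative interaction, and of the fibroblast and progenitor markers 8 of 12 a called positive one and 2 a negative one. A called positive interaction was also found for 8 of 8 macrophage markers (median 2.03) and 7 of 7 endothelial markers (median 1.39), and the part of all these markers in the interactions was not tested.

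Other genes of the same matrix were read from lists chosen by function. Among 18 tested relatives of the matricellular proteins, 5 were higher and 4 lower in KO on HFD, with a median log2 fold change of 0.15. Spp1 (osteopontin, which macrophages also make) changed by 5.97 and Smoc2, a SPARC relative, by 1.39, while its paralog Smoc1 changed by -2.30 and Tnc (tenascin C) by -1.84. On SD 2 of these relatives were higher, Spp1 (6.05) and Tgfbi (1.25), and 2 lower, the YAP/TAZ target Cyr61 (-1.41) and Matn2 (-0.83).

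Of 19 genes of collagen crosslinking and processing, 5 were higher and 5 lower in KO on HFD, with a median of 0.10, and none was called on SD. Adamts14, which trims procollagen, changed by 2.73 and Pcolce, an enhancer of procollagen cleavage, by 2.34. Its paralog Pcolce2 changed by -1.77, and Serpinh1, the collagen chaperone HSP47, by -1.48. With HFD in WT, 6 of the 19 were higher and 1 lower, led by Pcolce2 (3.08) and Serpinh1 (1.16), with Pcolce lower at -0.999. In KO the diet went with 1 higher gene, Pcolce (1.49).

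The small leucine-rich proteoglycans related to Dcn also split in KO on HFD, with 5 of 9 higher, 2 lower and a median of 0.74. Lum (lumican) changed by 2.57 and Fmod (fibromodulin) by 1.75, and Prelp by -3.73 and Podn (podocan) by -0.92. Prelp had the widest range of levels on this list, with 3475 and 5616 in WT SD, 959 and 692 in KO SD, 19377 and 19635 in WT HFD and 1489 and 1445 in KO HFD. It was lower in KO on SD as well (-2.44), together with Ogn (-1.92).

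Partners of elastic fibres and of fibronectin were more often higher than lower in KO on HFD, with 9 of 18 higher, 3 lower and a median of 1.19. Mfap2, a microfibril protein, was listed at 0 in both WT HFD libraries and at 82 and 78 in KO HFD, at least 26.7-fold higher when set against 3 counts in each WT library. Fbn2 (fibrillin 2) changed by 4.41 from 4 and 0 normalized counts in WT HFD to 48 and 45, while Ltbp2 changed by -2.10 and Efemp1 (fibulin 3) by -1.80. On SD none of the 18 was higher and 2 were lower, Efemp1 (-1.14) and Ltbp2 (-0.91).

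Receptors of these proteins gave 5 of 11 higher and 1 lower in KO on HFD, with a median of 0.26. The integrin subunits Itga4 and Itgb3 changed by 3.38 and 2.82 and Itgb5 by -1.75. On SD 3 were higher and none lower, led by Itga4 (2.15) and Itgav (1.10). Itga4 is also an integrin of leukocytes, and the macrophage markers were 8 of 8 higher in KO on both diets, with medians of 2.61 on SD and 4.29 on HFD.

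**Figure D4:**
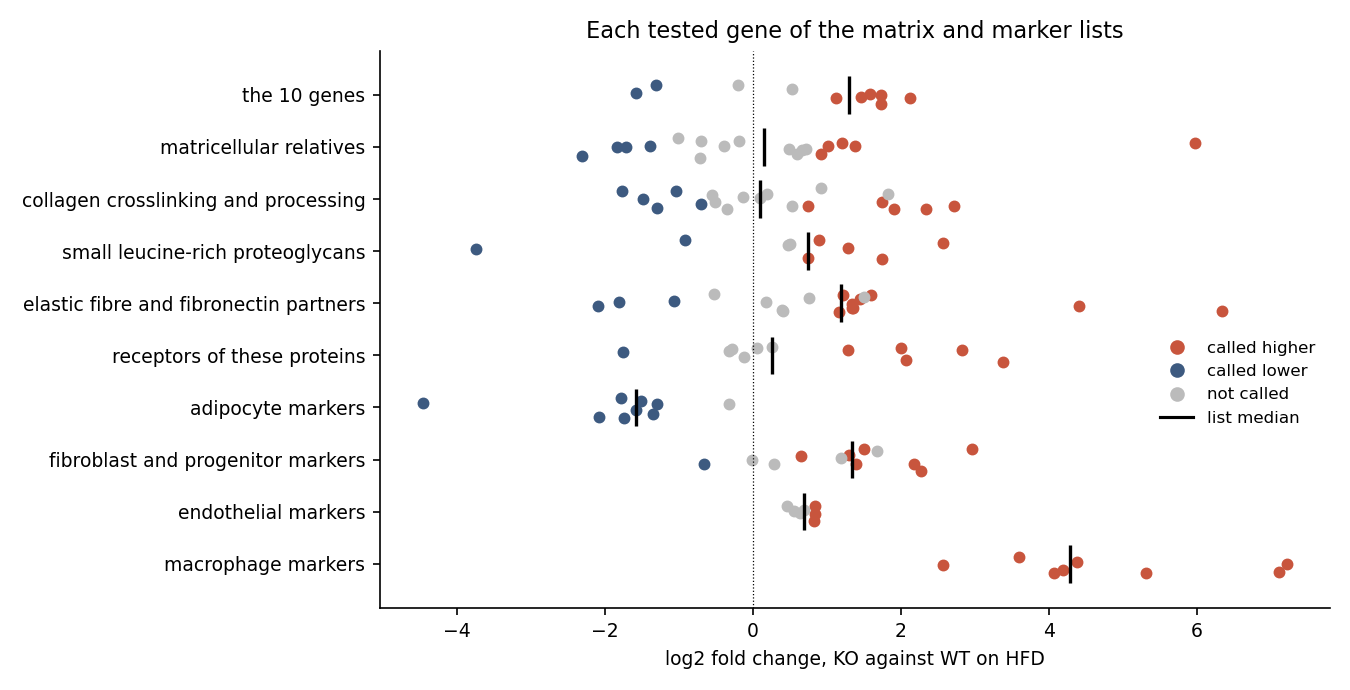
Log2 fold changes in KO against WT on HFD (x axis) of each tested gene of the 10 described here, of 5 related matrix lists and of 4 marker lists (y axis); each point is 1 gene, coloured by its call, and black bars are list medians. The 10 genes have a median of 1.30, the adipocyte markers all lie below 0 with a median of -1.57, and the macrophage markers lie highest with a median of 4.29.

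Across the 8 libraries, each gene was also set beside the genes whose profile was most like its own. The measure was the root mean square difference of log2 profiles, each centred on its own mean, over genes whose mean reached 50. The nearest to Sparc were Osbpl5 (0.04), Ulk2 (0.05) and Aplp2 (0.07), and to Thbs1 Frat2 (0.08), Emc2 (0.09) and Msrb2 (0.11). Dcn lay nearest to Sned1 (0.11), Crispld2 (0.13) and Chd3 (0.14), Loxl2 to Chd3 (0.13), Fstl1 and Antxr1 (0.14 each), and Postn to Adgrd1 (0.12), Icam1 (0.19) and Rnase4 (0.20).

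For Fn1 the nearest were Agpat4 (0.16), Ckap4 (0.18) and Gm44649 (0.18), and for Loxl1 Gm43010 (0.09), Igtp (0.15) and Gm43336 (0.18). Lox was nearest to Col6a1 (0.19), Abhd17c (0.22) and Col6a2 (0.24), of which Col6a1 and Col6a2 encode chains of collagen VI. Col6a1 stood at 5974 and 5766 in WT SD, 7885 and 5063 in KO SD, 13782 and 13346 in WT HFD and 11579 and 12655 in KO HFD. Thbs2 (0.30 to Mrc2, a collagen uptake receptor, 0.33 to Cdca7l and 0.34 to Plekhh2) and Cilp (0.31 to Clspn, 0.32 to Mgp and 0.32 to Frk) had no gene as close.

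Among the 10 genes themselves the closest profiles were those of Loxl2 and Dcn, with a difference of 0.23, followed by Sparc and Thbs1 with 0.26 and Postn and Loxl2 with 0.29, and the most distant were those of Postn and Thbs1 with 1.40. The profiles rest on 4 groups of 2 libraries, and these distances are given with no test.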

How the data were processed

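Reads were processed by the authors before deposit, as the methods and the submitters' processing notes give it: trimming with Reaper, alignment to GRCm38 with STAR 2.5.2b, counting on exons with featureCounts 1.5.1 without reads on several genes or places, and DESeq2 1.14.1. The deposited values were treated as a score, since gene counts had been scaled by a size factor for each library and then rounded. Rounding kept whole reads from being recovered, so no count test was run, and depth was read from the spacing of low values.

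Of 30387 genes, 18800 with a mean of at least 5 were fitted on log2(value + 1) with limma 3.58.1 (R 4.3.3; trend on, 4 group means, 4 residual and 8.59 prior degrees of freedom), and p-values were adjusted over all of them. With 2 libraries a group, an exact permutation test cannot go below p = 0.333. Members and lists were chosen with earlier results of these data known. Genes named were the 10 members, Yap1 and Wwtr1, in each list and comparison the called genes that rose most (2) and fell most (2), and 3 nearest profiles a member. Marker genes were named beside marker counts and distances. Itga5, Itgb1, Sparcl1 and other relatives set side by side at the end were named outside this rule, after their values were seen. From the list results, the text gives the comparisons that add to the members. Exon lengths came from GENCODE vM21. Same-numbered libraries did not deviate together: correlations of their deviations ran from -0.107 to 0.0397. The alternatives were 14 other settings and leaving out each library. Distances to marker lists and ratios were added after the values were seen.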

Additional observations from a re-analysis of the deposited data

Results flagged for a closer look

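The genotype effect differed between the diets, by the interaction term of the limma fit, for 6 of the 10 genes, where 17.4% of all genes were called. The interaction was 1.98 on the log2 scale for Postn, 1.58 for Loxl2, 2.03 for Dcn, 1.61 for Cilp, -0.99 for Sparc and -1.50 for Thbs1. For Postn the KO effect was 2.12 on HFD and 0.14 on SD, for Loxl2 1.73 and 0.15, for Dcn 1.73 and -0.30, for Cilp 1.58 and -0.04, for Sparc -1.30 and -0.31, and for Thbs1 -1.57 and -0.07. Sparc was -0.10 and not called under quantile normalization. Of 12 other settings, Dcn and Thbs1 were called under all 12, Postn and Loxl2 under 9, Cilp under 6 and Sparc under 5.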

How the results depend on the processing

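The count of called genes in KO against WT on HFD was 8, and it stayed between 7 and 9 under every alternative and between 7 and 8 without any 1 library. Leaving out 1 library at a time, which leaves its group with a single library assumed to vary like the other groups, the count ran from 0 to 1 for KO against WT on SD, where it was 0, from 1 to 7 for HFD against SD in WT, where it was 6, from 1 to 6 for HFD against SD in KO, where it was 3, and from 2 to 7 for the interaction, where it was 6. A pseudocount of 8 gave 1 gene for KO against WT on SD and 5 for HFD against SD in KO. For the latter, 5 genes were called when scaled to the same upper quartile, 0 with no filter on low values and 0 with only the groups compared in the fit. With the WT HFD libraries as 1 sample there was 1 gene for HFD against SD in WT and 2 for the interaction, and 2 also with no filter on low values and with an adjusted p of at most 0.01. With the replicate number as a block, the counts were 8 and 0 for genotype on HFD and SD, 6 and 3 for diet in WT and KO, and 4 for the interaction, where Sparc and Cilp were lost. Crossing the numbers of KO SD in the block, an alternative added after seeing the data, gave 5 genes for HFD against SD in KO. The causes were not tested. With 2 libraries a group, changes of Cilp and Postn on SD within intervals of -0.81 to 0.74 and -0.56 to 0.83 could not be seen.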

Other observations

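Some close relatives among the matrix genes stood on opposite sides in KO against WT on HFD. Smoc1 changed by -2.30 and Smoc2 by 1.39, Pcolce2 by -1.77 and Pcolce by 2.34, and Sparc by -1.30 and its relative Sparcl1 by 1.02 (limma adjusted p = 0.00281). The pairs were picked after their values were seen, and other relatives stood on the same side. Among those, Loxl1 changed by 1.13, Loxl2 by 1.73 and Loxl3 by 1.91, and Fbn1 by 1.22 and Fbn2 by 4.41. Endothelial cells are a known source of Sparcl1 RNA, and 3 of 7 endothelial markers were called higher and none lower in this comparison, but their part in it was not tested.

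Itga5, the integrin subunit that pairs with Itgb1 to bind fibronectin, was higher in KO on HFD by 2.07 ± 0.20 SE (adjusted p = 9.18e-06) beside Fn1, at 1142 and 1466 normalized counts in WT HFD against 5509 and 5388 in KO HFD. Its interaction of genotype and diet was 1.64 (adjusted p = 0.00515). It was 2586 and 2644 in WT SD and 4426 and 2829 in KO SD, where the change was 0.44 (adjusted p = 0.291). Its partner Itgb1 changed by -0.32 in KO on HFD (limma adjusted p = 0.118) and was not called. Itga5 was picked from its list after the values were seen.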
